A study of Mus musculus with 12 samples.

Results

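The genes of the cytosolic ribosomal proteins (RP genes) were examined in satellite cells (SCs), the stem cells of skeletal muscle, with and without the transcription factor FoxM1. They were chosen by symbol from a table of 13775 genes: every Rpl, Rps and Rplp gene and Rpsa was taken, while pseudogenes marked as such in their symbol, the S6 kinases and Rps19bp1 were left out. This gave 89 genes, 53 of the large and 36 of the small subunit. In GENCODE M21, 83 of them are annotated as protein-coding and 6 as processed pseudogenes that carry a gene-like symbol (Rpl32l, Rpl37rt, Rpl6l, Rps3a2, Rps3a3 and Rps4l).

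A ribosome holds a single copy of nearly every one of these proteins, so cells make them in matched amounts. Their mRNAs begin with a short run of pyrimidines, the 5′ terminal oligopyrimidine (TOP) motif, through which mTORC1 and Larp1 set how much of each mRNA is translated. Resting SCs are small, hold little RNA and make little protein, and ribosome production is known to increase when SCs leave quiescence.

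The mice had the C57BL/6J background and were 2 months old. FoxM1-cKO mice carried FoxM1fl/fl with Pax7Cre/+, and their controls were FoxM1fl/fl mice without Cre, so the floxed allele (exons 4 to 7 between loxP sites) was present in all animals. The Cre is driven by Pax7, so deletion is limited to cells that have expressed Pax7. Injured muscle (tibialis anterior and gastrocnemius) had received 50 µl of 1.2% BaCl2 48 h before SCs were taken, while the labels leave unclear whether uninjured muscle had received PBS. About 800 SCs per library were sorted as cells positive for CD34 and α7-integrin and negative for CD45, CD31, CD11b and Sca1, and 3 libraries were made from polyA RNA for each of 4 groups: FoxM1-cKO injured, FoxM1fl/fl injured, FoxM1-cKO uninjured and FoxM1fl/fl uninjured. The labels do not say which animals a library came from, so p-values measure the spread among libraries, part of which may be technical. Levels are FPKM, fragments scaled to transcript length and to the fragments mapped, which allow genes of different length to be compared. With sorted pools, fewer cells and less RNA per cell cannot be told apart.

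RP genes are known to share a pyrimidine run near the start of transcription. Sequence near that start is shown for 7 RP genes on which the comparisons below turn. Each line gives 30 bases around the longest unbroken run of C and T within 50 bases of a RefSeq start (GRCm38.p6), read 5′ to 3′ on the strand of the gene, with the run in capitals. The stretches lie at chrX:102189342-102189371 (minus strand, Rps4x), chr15:5116632-5116661 (plus, Rpl37), chr5:115110265-115110294 (minus, Rpl37rt), chr2:180257399-180257428 (plus, Rps21), chr5:65391383-65391412 (minus, Rpl9), chr10:80292447-80292476 (plus, Rps15) and chr7:45128722-45128751 (minus, Rpl13a).
Rps4x: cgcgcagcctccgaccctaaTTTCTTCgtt
Rpl37: gcgggggtgCTTTCTCTTCCggtctctttg
Rpl37rt: tgcctgtgtctgTCTTCaggccagagcccg
Rps21: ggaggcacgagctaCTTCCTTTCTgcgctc
Rpl9: acgaaagacgTTCTCTCTTTgccccatcta
Rps15: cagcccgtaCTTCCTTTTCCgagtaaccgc
Rpl13a: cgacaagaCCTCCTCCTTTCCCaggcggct
The runs are 14 bases long in Rpl13a, 11 in Rpl37 and Rps15, 10 in Rps21 and Rpl9, 7 in Rps4x and 5 in Rpl37rt, a retrocopy of Rpl37. Relative to the RefSeq start, the run began at base 40 in Rps4x, 34 in Rps21, 29 in Rpl9 and 28 in Rpl37. It began at base 25 in Rps15, 2 in Rpl13a and -14 in Rpl37rt. Most of these windows therefore do not hold the start itself, and their runs are not shown to be 5′ terminal. A RefSeq start matched 65 of the 89 RP genes. Of these, 53 (81.5%) had a run of at least 8 bases, each C or T, within that window, and so did 10614 of 27025 RefSeq genes (39.3%). The forkhead motif of FoxM1 was searched as the letters CAAACAA, then as the letters TAAACAA, then as the letters CAAATAA and then as the letters TAAATAA on both strands, in windows of 250 bases before to 50 bases after each start. It was present in 7 of the 65 RP genes (10.8%; Rpl14, Rpl22, Rpl24, Rpl32l, Rpl35a, Rps23 and Rpsa) and in 5165 of the 27025 genes (19.1%). A match describes these letters only and is not a binding site.

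The libraries differed in depth. At the step size of the FPKM values they held 1693001 to 2854512 reads in injured FoxM1-cKO SCs, 907561 to 1284058 in injured FoxM1fl/fl SCs, 170701 to 238173 in uninjured FoxM1-cKO SCs and 174827 to 642010 in uninjured FoxM1fl/fl SCs. FoxM1 was listed at 3.48, 1.28 and 0.832 FPKM in injured FoxM1-cKO SCs, against 32.8, 29.4 and 42.0 FPKM in injured FoxM1fl/fl SCs. In uninjured muscle it was listed at 0 in all 3 FoxM1-cKO libraries, against 5.48, 8.95 and 7.38 FPKM in FoxM1fl/fl SCs. By limma its adjusted p was 0.0180 in injured and 0.128 in uninjured SCs. Only 2 of 6 FoxM1 values that could be read as up to 100 reads came out as whole reads, where the median gene had all of its values whole, and 35.7% of 2508 genes did as poorly. Its symbol is the only 1 of 13775 written with a capital inside the word, and its annotation fields are empty, as they are for 23.2% of genes. How these FoxM1 values were obtained is therefore unclear, and they are given as listed, not as a check of the deletion. Of 13 SC markers in the table, 7 to 10 were above 0 in the injured FoxM1-cKO libraries, 3 to 8 in the injured FoxM1fl/fl, 3 to 5 in the uninjured FoxM1-cKO and 2 to 4 in the uninjured FoxM1fl/fl libraries. Itga7, Cdh15 and Vcam1 were at 0 in all 6 uninjured libraries, although α7-integrin was used in the sort. Pax7 and Myf5 were not analysed here.

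In 3 libraries the RP genes followed a weighted sum of the other libraries of their group. Weights were fitted on the genes that are not RP genes and then applied to RP genes with at least 20 FPKM in 1 of the other libraries. FoxM1fl/fl injured 1 lay within 1.5-fold of 0.662 times replicate 2 plus 0.315 times replicate 3 for 85 of 86 RP genes (98.8%). FoxM1-cKO uninjured 2 did so for 51 of 62 (82.3%), at weights of 0.373 and 0.475 on replicates 1 and 3. FoxM1fl/fl uninjured 1 did so for 43 of 53 (81.1%), at weights of 0.799 and 0.101 on replicates 2 and 3. In injured FoxM1-cKO SCs, where the same was tried for each library, 18.6% to 20.2% of RP genes lay that close. The fitted weights were lower there, at 0.145 to 0.182, and the median RP gene stood at 2.80 to 2.82 times its weighted sum. These percentages are therefore not a like-for-like control for the 3 libraries. Every count of called RP genes below is also given without these 3 libraries. Without them no gene of the 4956 tested passed in any comparison.

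**Figure D1:**
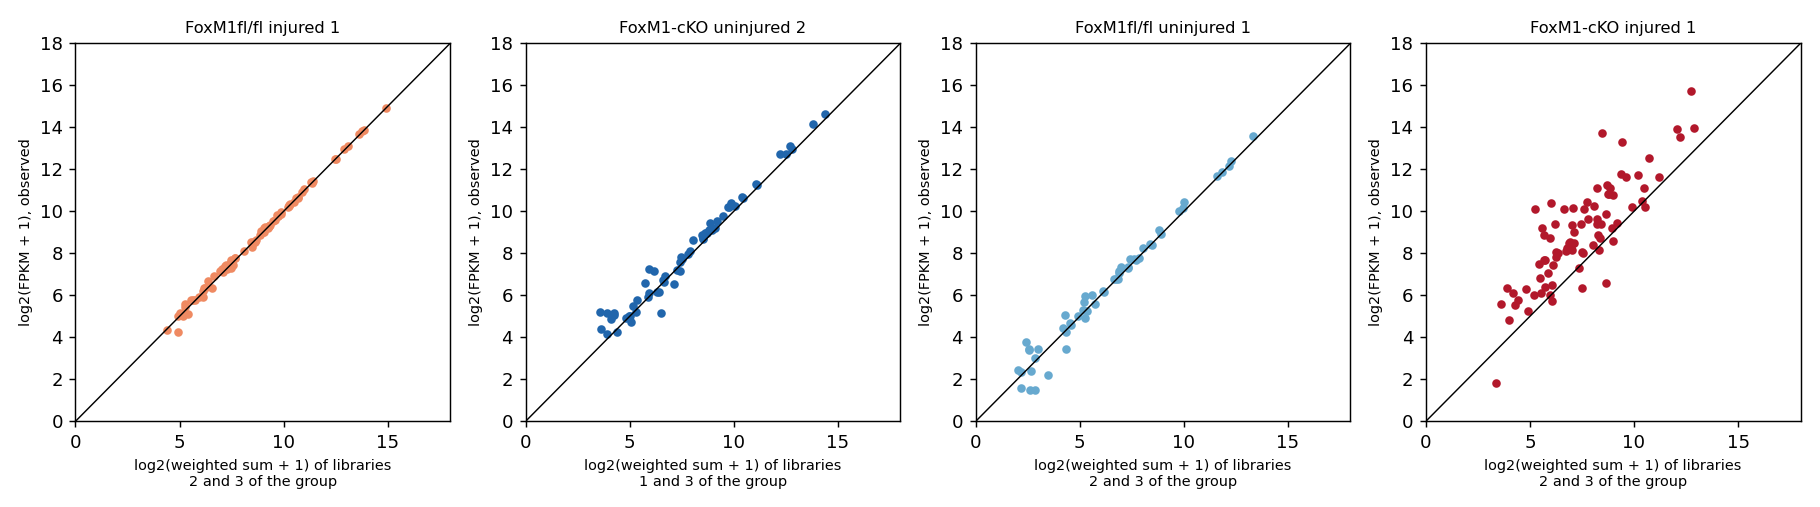
Observed level of each RP gene (log2(FPKM + 1), vertical axis) against the weighted sum of the other libraries of its group (same scale, horizontal axis), 1 point a gene, with the line of equality. In FoxM1fl/fl injured 1 (86 genes), FoxM1-cKO uninjured 2 (62) and FoxM1fl/fl uninjured 1 (53) most points lie on the line, whereas those of FoxM1-cKO injured 1 (84) scatter widely around and mostly above it.

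Nearly the full set of RP genes was detected in SCs from injured muscle, and fewer were detected in SCs from uninjured muscle. Injured FoxM1-cKO libraries had 87, 88 and 87 of the 89 genes above 0 FPKM, and injured FoxM1fl/fl libraries had 86, 87 and 86. Uninjured FoxM1-cKO libraries had 62, 72 and 69, and uninjured FoxM1fl/fl libraries had 71, 46 and 61. Detection was lower over all genes too. Of 13775 genes, 6417 to 7577 were above 0 in injured FoxM1-cKO libraries and 4462 to 6579 in injured FoxM1fl/fl libraries. In uninjured libraries 1178 to 1718 were above 0 with FoxM1-cKO and 1464 to 3423 with FoxM1fl/fl. The uninjured libraries were also the shallow ones, with 12 to 23 RP genes above 0 on under 5 reads, against 0 to 2 in injured libraries, so a gene at 0 there may have gone undetected. Among the uninjured libraries detection did not follow depth. The deepest, FoxM1fl/fl uninjured 2 (642010 reads), had the fewest RP genes above 0, at 46, while FoxM1-cKO uninjured 2 had 72 at 172898 reads. The RP gene of median level stood at 384, 471 and 308 FPKM in injured FoxM1-cKO SCs and, among injured SCs, at 363, 209 and 278 FPKM with FoxM1fl/fl. In uninjured SCs it stood at 21.7, 69.2 and 37.5 FPKM with FoxM1-cKO and at 9.85, 0.646 and 35.2 FPKM with FoxM1fl/fl.

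The summed level of the RP genes separated the uninjured genotypes. They made up 15.6%, 15.5% and 14.9% of all FPKM in uninjured FoxM1-cKO SCs, against 6.28%, 5.48% and 9.74% in uninjured FoxM1fl/fl SCs, and the libraries did not overlap. In FoxM1-cKO uninjured 1 a single RP gene held 50.9% of the RP FPKM, so the share of that library rested largely on 1 gene. Whether the genotypes would separate without that gene was not tested. In injured SCs the share was 16.8%, 18.7% and 21.2% with FoxM1-cKO and 14.5%, 13.5% and 17.0% with FoxM1fl/fl, which overlapped. The most abundant row, Gm23935, held 4.27% to 9.29% of FPKM in uninjured FoxM1-cKO and 19.1% to 32.8% in uninjured FoxM1fl/fl libraries. It held 20.7% to 48.4% in injured FoxM1-cKO and 35.2% to 48.9% in injured FoxM1fl/fl libraries. With it left out of the sum, the uninjured RP shares were 16.2%, 16.8% and 16.4% in FoxM1-cKO SCs, against 8.14%, 6.77% and 14.5% in FoxM1fl/fl SCs. The injured shares were then 32.6%, 25.1% and 26.7% with FoxM1-cKO and 26.3%, 26.5% and 26.2% with FoxM1fl/fl, above all uninjured shares. The uninjured share of 14.5% came from FoxM1fl/fl uninjured 3, which held 174827 reads, against 600585 and 642010 in replicates 1 and 2 of that group. Markers of the muscle fibre differed in the same direction as the RP share between the uninjured genotypes, but not between injured and uninjured SCs. In uninjured SCs 15 of them summed to 12.5%, 9.29% and 6.29% of FPKM with FoxM1-cKO, against 2.02%, 1.34% and 5.80% with FoxM1fl/fl. In injured SCs they summed to 0.0372% to 0.134%, at RP shares of 13.5% to 21.2%. The 13 SC markers also differed in this direction, with 0.118% to 0.184% of FPKM in uninjured FoxM1-cKO and 0.0151% to 0.0297% in uninjured FoxM1fl/fl libraries. After injury they summed to 0.0165% to 0.0396% with FoxM1-cKO and 0.00166% to 0.0956% with FoxM1fl/fl. The part of fibre RNA in the RP levels was not tested.

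**Figure D2:**
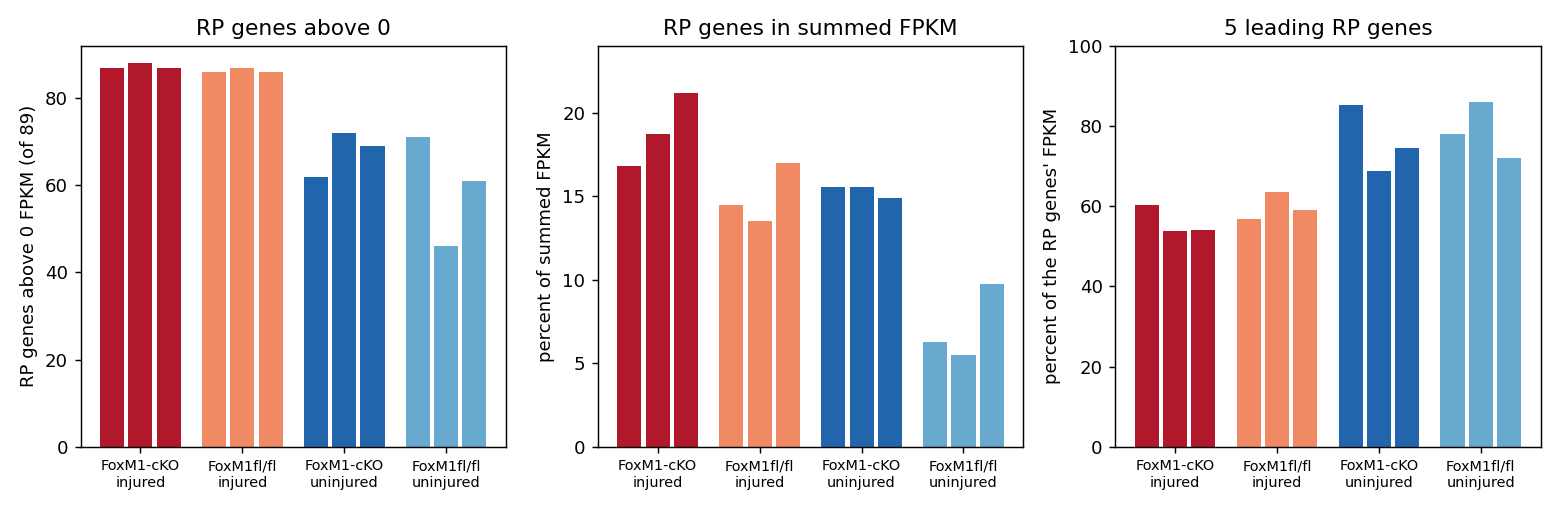
RP genes in each of the 12 libraries (1 bar a library, 3 a group): number above 0 FPKM of 89 (left), percent of summed FPKM (middle) and percent of the RP genes' FPKM held by the 5 leading RP genes of that library (right). Injured libraries have 86 to 88 genes above 0, the uninjured FoxM1fl/fl libraries have the lowest shares (5.48% to 9.74%), and the 5 leading genes hold 53.8% to 63.6% in injured and 68.8% to 86.1% in uninjured libraries.

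A few RP genes held most of the sum in uninjured SCs, and they were not the same in each library. Rplp1 led FoxM1-cKO uninjured 3 with 37.2% of the RP FPKM. Rps14, a protein of the platform of the small subunit, led FoxM1fl/fl uninjured 1 and 2 with 33.1% and 38.4%, and Rplp1 led FoxM1fl/fl uninjured 3 with 34.0%. Large subunit genes made up 12.1%, 41.9% and 73.2% of the RP FPKM in the 3 uninjured FoxM1-cKO libraries and 42.8%, 38.3% and 66.6% in the uninjured FoxM1fl/fl libraries. In injured SCs their part was 68.7%, 67.6% and 64.7% with FoxM1-cKO and 50.9%, 49.2% and 54.5% with FoxM1fl/fl. Between the 10th and the 90th percentile of RP genes above 0, levels covered a range of 58.8-fold to 76.6-fold in injured FoxM1-cKO libraries, 60.9-fold to 118-fold in injured FoxM1fl/fl, 171-fold to 360.4-fold in uninjured FoxM1-cKO and 169.98-fold to 782-fold in uninjured FoxM1fl/fl libraries.

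Replicates of uninjured SCs differed strongly. Of the RP genes above 0 in all 3 libraries of a group, 25 of 54 differed over 10-fold between libraries of uninjured FoxM1-cKO SCs and 19 of 35 in uninjured FoxM1fl/fl SCs, against 7 of 87 and 11 of 86 in injured FoxM1-cKO and FoxM1fl/fl SCs. A further 23 and 41 RP genes were above 0 in only some of the uninjured FoxM1-cKO and FoxM1fl/fl libraries. Over the 89 genes, Pearson's r of log2(FPKM + 1) ranged between 0.43 and 0.91 for the 12 pairs of libraries of the same group and between 0.38 and 0.64 for the 36 pairs of an injured with an uninjured library. These r values are a description, since all points of a library share its depth.

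**Figure D3:**
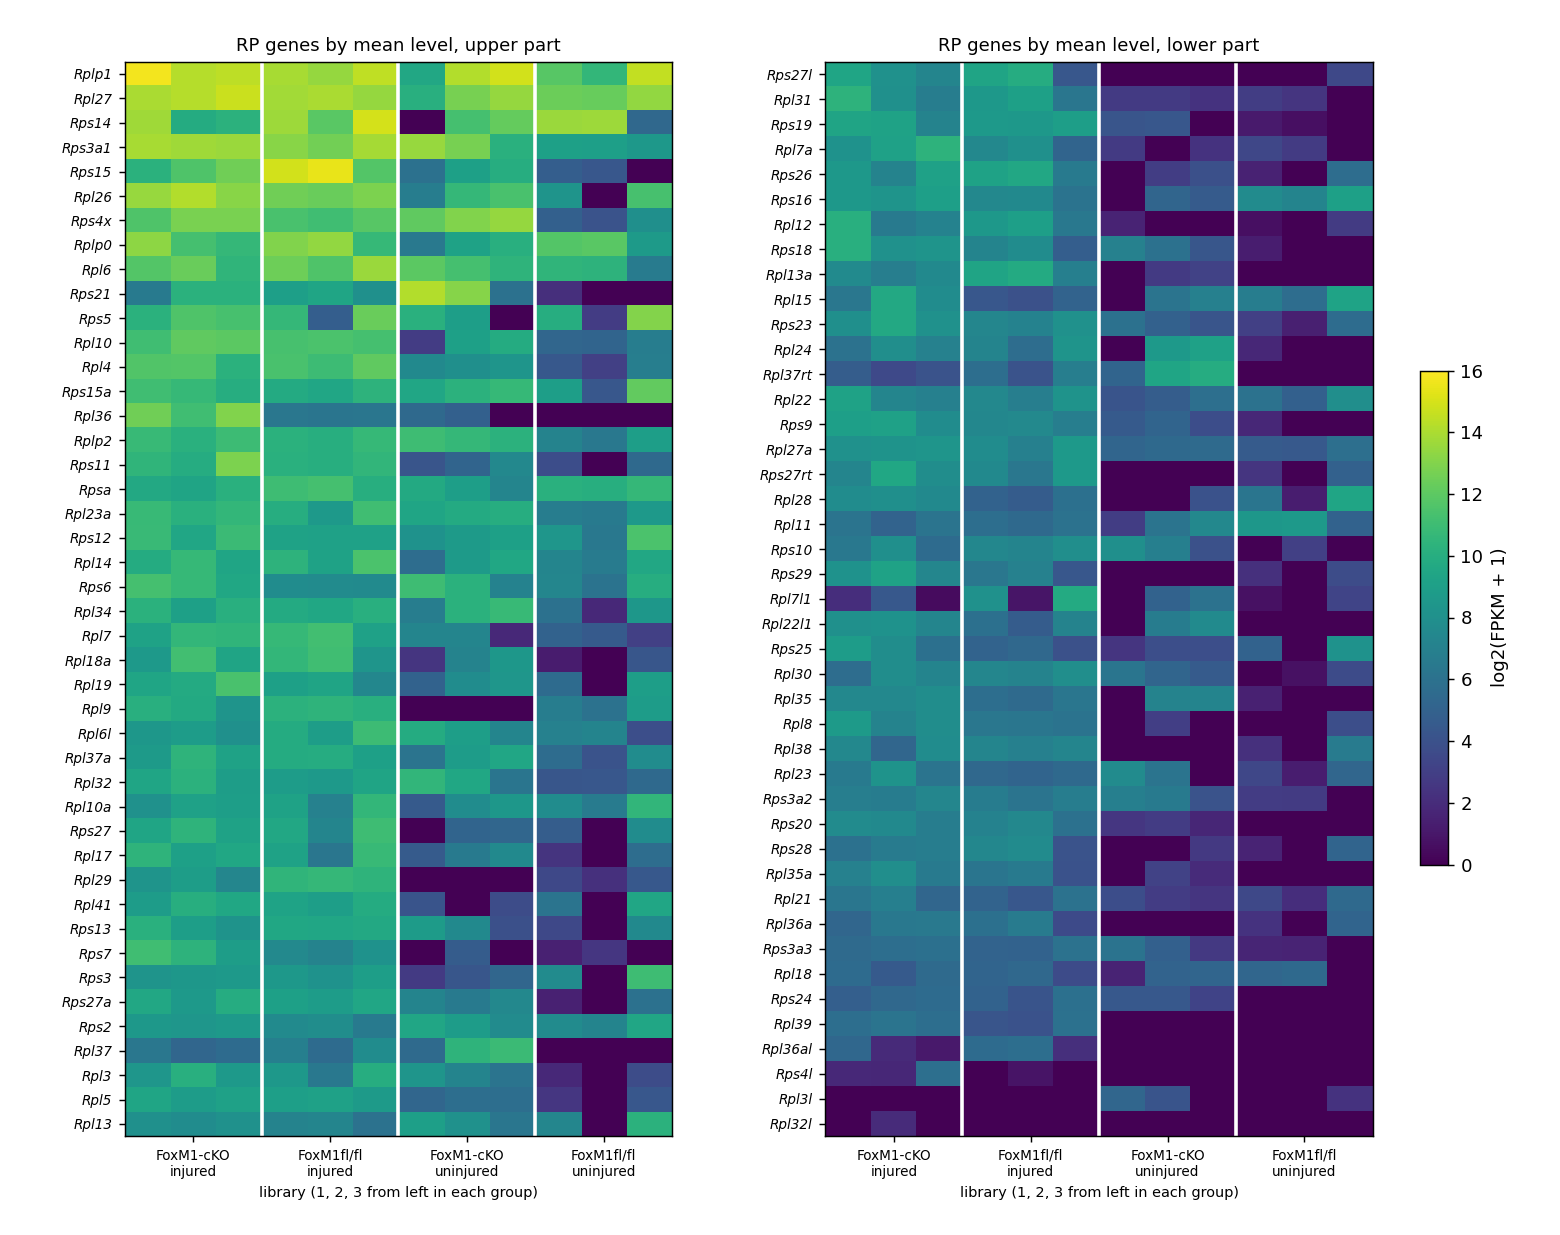
Level (log2(FPKM + 1), colour) of 87 RP genes, ordered by mean level from the top of the left panel to the foot of the right panel, in 12 libraries of 4 groups. The injured libraries on the left of each panel are filled for nearly all genes, while the uninjured libraries on the right mix very high levels (Rps21, Rps14, Rplp1) with genes at 0.

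The first comparison asked whether RP genes differ without FoxM1 in uninjured muscle. Rps4x, Rps21, Rpl37 and Rpl37rt were among the genes higher in FoxM1-cKO SCs and Rpl9 was lower, out of the 88 that passed a filter of at least 1 FPKM in at least 3 of 12 libraries (all but Rpl32l). The test was limma on log2(FPKM + 1) over all 4956 genes that passed, with Benjamini-Hochberg adjusted p under 0.05. It called 1.53% of all tested genes, 0.868% higher and 0.666% lower, and 6 of 88 RP genes, 5 higher and 1 lower. With the 3 libraries close to a weighted sum left out, it called 0 RP genes, with 15 at an unadjusted p under 0.05, against 35 with all libraries. With all libraries, 937 of the 4956 tested genes had an unadjusted p under 0.05. Here and below, that count over all genes was not made for the fits without the 3 libraries. By median-ratio scaling, 5 RP genes were higher and 3 lower, and 2.51% of 4590 tested genes were called.

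Rps4x, the X-linked gene of a small subunit protein (chrX:102184941-102189394), stood at 4386, 8127 and 11502 FPKM in uninjured FoxM1-cKO SCs, against 29.0, 16.0 and 246 FPKM in FoxM1fl/fl SCs. The lowest FoxM1-cKO library was far above the highest FoxM1fl/fl library, and the values rested on 730 or more reads in FoxM1-cKO and on 10 to 42 reads in FoxM1fl/fl libraries. The log2 fold change was 7.21 (SE 0.97, adjusted p = 0.00396 from limma). Rps21, a small subunit protein gene on chromosome 2 (180257377 to 180258445), had 18074, 8826 and 61.1 FPKM in uninjured FoxM1-cKO SCs, against 3.46, 0 and 0 FPKM in FoxM1fl/fl SCs (log2 fold change of 10.35 with an SE of 1.86, adjusted p = 0.0166 by limma). Its FoxM1-cKO libraries did not overlap the controls but spanned over 100-fold among themselves.

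Rpl37, a zinc-binding protein of the large subunit (chr15:5116645-5119140), was at 44.3, 1363 and 1929 FPKM in uninjured FoxM1-cKO SCs and was at 0 in each of the 3 FoxM1fl/fl libraries (adjusted p = 0.00653 from limma). Its retrocopy Rpl37rt had 34.4, 687 and 942 FPKM in FoxM1-cKO SCs and was likewise listed at 0 in FoxM1fl/fl SCs (adjusted p = 0.00902). Reads of this pair cannot be told apart with certainty, so they are not independent. Against a floor of 3 reads over the control group, the mean FoxM1-cKO level was at least 486-fold higher for Rpl37 and at least 179-fold higher for Rpl37rt.

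Rpl9, a protein of the large subunit near the base of the P-stalk (chr5:65388364-65391444), went the other way. It was listed at 0 in all 3 uninjured FoxM1-cKO libraries, against 109, 64.9 and 464 FPKM in FoxM1fl/fl SCs, which rested on 112 to 218 reads (adjusted p = 0.00538 from limma). With a floor of 3 reads over the FoxM1-cKO group, the FoxM1fl/fl mean was at least 111-fold higher. In injured SCs Rpl9 was present in all libraries, at 1106, 826 and 308 FPKM with FoxM1-cKO and 1258, 1349 and 1103 FPKM with FoxM1fl/fl. Rpl29, a large subunit protein, and Rpsa, a small subunit protein also known as a laminin receptor, also had no overlap with FoxM1-cKO lower, on low reads for Rpl29 (2 to 5 in FoxM1fl/fl libraries), but did not pass. Rpsa was at 858, 507 and 152 FPKM in uninjured FoxM1-cKO SCs, against 1149, 1034 and 1579 FPKM in FoxM1fl/fl SCs (adjusted p = 0.351 by limma).

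The RP genes as a whole leaned towards higher levels in uninjured FoxM1-cKO SCs. Of the 88 tested, 23 lay wholly above and 4 wholly below the FoxM1fl/fl libraries (30.7%), while 7.1% of all tested genes had no overlap, 3.69% above and 3.41% below. The median log2 difference was 1.65 for RP genes and 0 for all tested genes. Of the 4956 tested genes, 1464 had a positive and 1567 a negative difference, and the rest had none, which holds their median at 0. With a stricter filter (at least 5 FPKM in at least 6 libraries) the medians were 1.66 for RP genes and 0.54 for all tested genes. By voom on recovered reads they were 1.70 and 1.00, so part of the lean was shared by other genes. Putting the 17 RP genes listed at 0 in 1 group at a floor of 3 reads over that group gave an RP median of 1.29. Median-ratio scaling brought it to 0.26, so its size depended on the scaling. The median was 1.63 for the 52 large and 1.65 for the 36 small subunit genes tested. With the 3 libraries close to a weighted sum left out, it was 1.21.

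**Figure D4:**
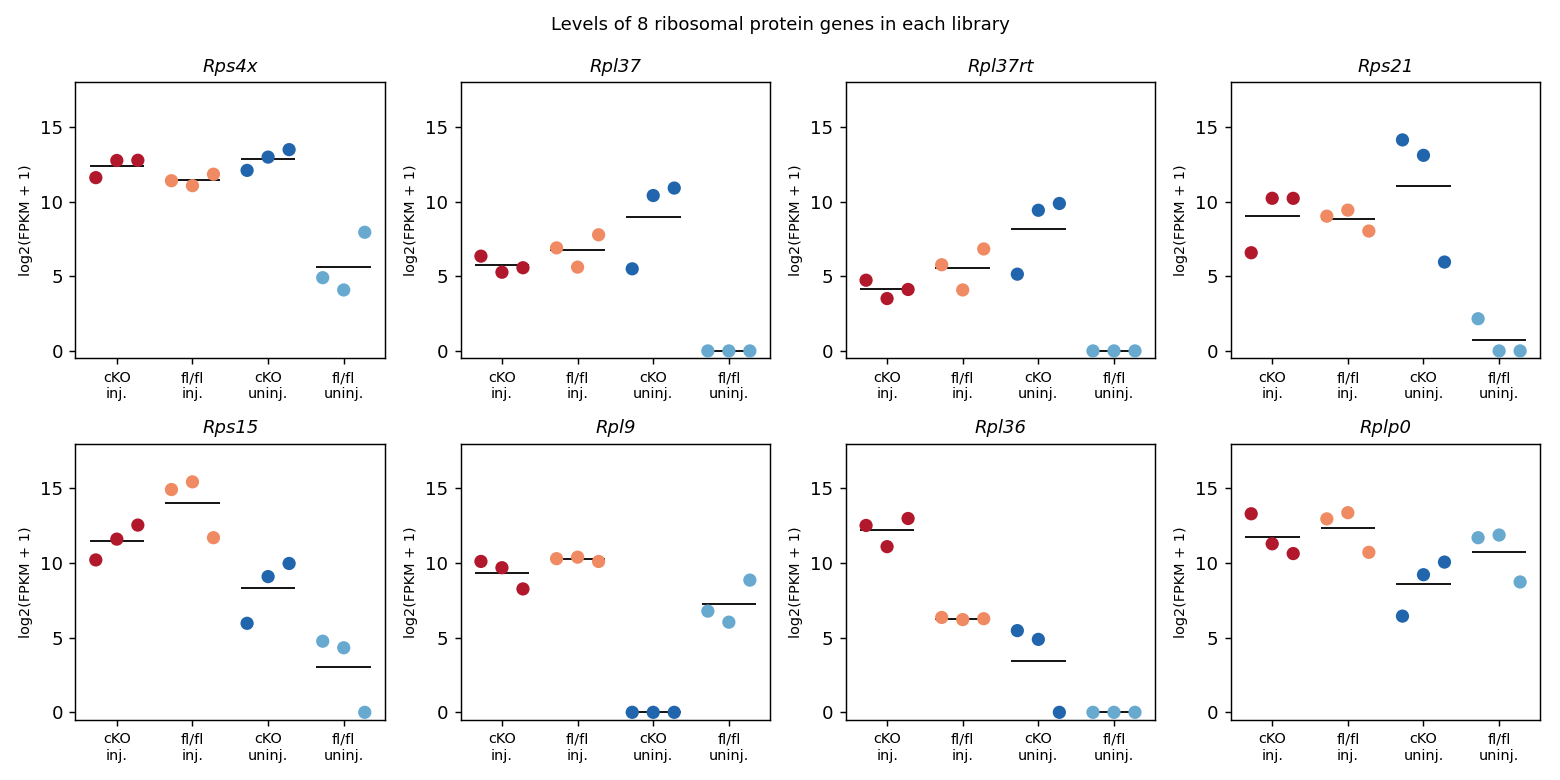
Level (log2(FPKM + 1), vertical axis) of 8 RP genes in each library (1 point a library, line at the group mean; cKO and fl/fl stand for FoxM1-cKO and FoxM1fl/fl, inj. and uninj. for injured and uninjured). Rps4x, Rpl37, Rpl37rt and Rps21 are high or mixed in uninjured FoxM1-cKO and at 246 FPKM or less in uninjured FoxM1fl/fl libraries, Rps15 is high in injured FoxM1fl/fl libraries, Rpl9 is at 0 in uninjured FoxM1-cKO libraries, Rpl36 stands out in injured FoxM1-cKO libraries, and Rplp0 overlaps between the genotypes in both conditions.

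The second comparison asked the same at 48 h post-injury. A single RP gene of 88 was called, against 7.81% of all tested genes, 5.15% higher and 2.66% lower. Rpl36, a large subunit protein (chr17:56613416-56614243), was at 5885, 2197 and 8133 FPKM in injured FoxM1-cKO SCs, against 81.1, 73.3 and 76.4 FPKM in injured FoxM1fl/fl SCs (log2 fold change of 5.92 with an SE of 1.38, adjusted p = 0.0186 by limma). In uninjured SCs it was at 43.5, 28.6 and 0 FPKM with FoxM1-cKO and listed at 0 with FoxM1fl/fl. The FoxM1fl/fl injured values lay within a narrow range, and FoxM1fl/fl injured 1 is a library that follows a weighted sum. Leaving that library out ended the call, and without all 3 such libraries 0 RP genes passed, with 1 at an unadjusted p under 0.05, against 4 with all libraries. With all libraries, 1145 of the 4956 tested genes had an unadjusted p under 0.05, a larger share than the 4 of 88 RP genes.

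Some markers of other cells differed between the genotypes in injured SCs. The 8 fibro-adipogenic markers summed to 0.250% to 0.491% of FPKM in injured FoxM1-cKO SCs, against 0.0846% to 0.0849% in injured FoxM1fl/fl SCs. Of these 8, Lum and Pdgfra were called higher. Of 5 tested leukocyte markers 1, Tyrobp, was called lower. The 8 leukocyte markers in the table summed to 0.00164% to 0.0900% of FPKM with FoxM1-cKO and 0.0608% to 0.221% with FoxM1fl/fl, which overlapped. Hbb-bs, the only erythroid marker tested, was called lower and was listed at 0 in injured FoxM1-cKO SCs. The part of these other cells in the RP levels was not tested.

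With Rpl36 included, 22 RP genes lay wholly above and 2 (Rpl29 and Rpl6l) wholly below the injured FoxM1fl/fl libraries (27.3%), while 23.1% of all tested genes had no overlap, 17.2% above and 5.87% below. Rps6, the substrate of the S6 kinases, was among them at 2461, 1668 and 734 FPKM in FoxM1-cKO SCs, against 217, 209 and 203 FPKM in FoxM1fl/fl SCs (adjusted p = 0.198 from limma). Rpl29 was at 307, 471 and 161 FPKM in FoxM1-cKO SCs, against 1411, 1589 and 1331 FPKM in FoxM1fl/fl SCs. The median log2 difference was 0.41 for RP genes and 0.32 for all tested genes, and 0.10 and 0.12 after median-ratio scaling.

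The effect of FoxM1 loss differed between injured and uninjured SCs for 3 RP genes, all with a lower fold change in injured SCs, where 1.09% of all tested genes passed and 0.484% passed in this direction and 0.605% in the other. For Rps4x the injured values were 3131, 6941 and 7010.3 FPKM with FoxM1-cKO and 2714, 2156 and 3675 FPKM with FoxM1fl/fl, which overlapped (difference of the log2 fold changes -6.27, SE 1.38, adjusted p = 0.0480 from limma). Rpl37 was at 80.7, 37.7 and 46.7 FPKM in injured FoxM1-cKO SCs, against 119, 47.99 and 219 FPKM in FoxM1fl/fl SCs (adjusted p = 0.0422), and Rpl37rt followed it (adjusted p = 0.0422). With the 3 libraries close to a weighted sum left out, 0 RP genes passed, with 9 at an unadjusted p under 0.05, against 21 with all libraries. With all libraries, 1076 of the 4956 tested genes had an unadjusted p under 0.05, a share near that of the 21 among 88 RP genes.

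Injury was followed by higher levels of most RP genes in control SCs. In FoxM1fl/fl SCs, 50 of 88 RP genes rose at 48 h post-injury and 0 fell, against 20.8% of all tested genes called, 18.8% higher and 1.92% lower. The median log2 difference was 4.47 for RP genes and 1.51 for all tested genes, and 4.23 for RP genes with the 13 at 0 in 1 group put at the floor. Both subunits were represented, with 28 of 52 large and 22 of 36 small subunit genes. Of the 88, 56 lay wholly above and 1 (Rpl15) wholly below the uninjured libraries, while 35.4% of all tested genes had no overlap, 33.2% above and 2.2% below. Leukocyte markers moved with injury too. Of 5 tested, 3 (Cd14, Lyz2 and Tyrobp) rose in FoxM1fl/fl SCs, with a median log2 difference of 7.27, although CD45 and CD11b were used to exclude leukocytes in the sort. The 8 in the table summed to 0.0608% to 0.221% of FPKM in injured FoxM1fl/fl SCs, against 0% to 0.265% in uninjured FoxM1fl/fl SCs, and Ptprc, which encodes CD45, was at 0 in all 3 injured FoxM1fl/fl libraries. Their part in the RP levels was not tested. With quantile normalization, which removes the shift common to all genes, 17 RP genes rose and the median was 2.83, while 6.86% of all tested genes were called. With the 3 libraries close to a weighted sum left out, 0 RP genes passed, with 46 at an unadjusted p under 0.05 against 60 with all libraries, and the median was 4.58. With all libraries, 2108 of the 4956 tested genes had an unadjusted p under 0.05.

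The smallest p-values in FoxM1fl/fl SCs belonged to genes of both subunits. Rps15, a protein of the head of the small subunit, had 31193, 44598 and 3334 FPKM in injured SCs, against 26.2, 19.1 and 0 FPKM in uninjured SCs (log2 fold change of 11.00 with an SE of 1.51, adjusted p = 0.00117 by limma). It was then the most abundant RP gene of FoxM1fl/fl injured 1 and 2, but not of FoxM1fl/fl injured 3. Rpl13a, which in human myeloid cells also acts in translational silencing outside the ribosome, had 639, 897 and 119 FPKM in injured SCs and was listed at 0 in all 3 uninjured libraries (adjusted p = 0.00120), at least 273-fold higher against the floor. Rps20 had 138, 178 and 61.2 FPKM in injured SCs and was also listed at 0 in uninjured SCs (adjusted p = 0.00141).

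Rpl29 reached 1411, 1589 and 1331 FPKM after injury of FoxM1fl/fl muscle, against 9.85, 3.69 and 20.3 FPKM in uninjured SCs (log2 fold change of 7.13 with an SE of 1.04, adjusted p = 0.00141). Rpl4, which lines the exit tunnel of the large subunit, stood at 2753, 2039 and 4287 FPKM in injured against 20.6, 7.09 and 115 FPKM in uninjured SCs (log2 fold change of 6.73 with an SE of 1.05, adjusted p = 0.00182). All injured values of both genes were above all uninjured values. Rps19, whose loss causes Diamond-Blackfan anaemia in people, had 396, 366 and 509 FPKM in injured against 1.25, 0.586 and 0 FPKM in uninjured SCs (log2 fold change of 8.10 with an SE of 1.31, adjusted p = 0.00188). Rps9 and Rps4x were the other members of the 8 smallest p-values, with adjusted p of 0.00182 and 0.00225.

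In FoxM1-cKO SCs fewer RP genes passed, and whether the response differed was tested gene by gene above. Of 88 RP genes 32 rose at 48 h post-injury and 1 fell, against 24.5% of all tested genes called, 23.4% higher and 1.15% lower. The 2 injury comparisons share no library. Of the genes that rose, 22 were called in both, which is 44.0% of those called in FoxM1fl/fl and 68.8% of those called in FoxM1-cKO SCs. The median log2 difference was 3.11 for RP genes and 1.68 for all tested genes, and 3.05 with the 12 RP genes at 0 in 1 group put at the floor. The excess over all tested genes depended on the processing. With a pseudocount of 0.1 the medians were 3.37 and 3.49, and 37.5% of RP genes and 34.3% of all tested genes were called. The called shares were 41.2% and 39.7% with the stricter filter, but 35.2% and 15% with a pseudocount of 5. In FoxM1-cKO SCs 55 RP genes lay wholly above and 1 wholly below the uninjured libraries, while 46.2% of all tested genes had no overlap, 44.8% above and 1.41% below. With quantile normalization 8 RP genes rose and 1 fell, while 3.37% of all tested genes were called. With the 3 libraries close to a weighted sum left out, 0 RP genes passed, with 31 at an unadjusted p under 0.05 against 46 with all libraries. With all libraries, 1952 of the 4956 tested genes had an unadjusted p under 0.05 in this comparison.

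**Figure D5:**
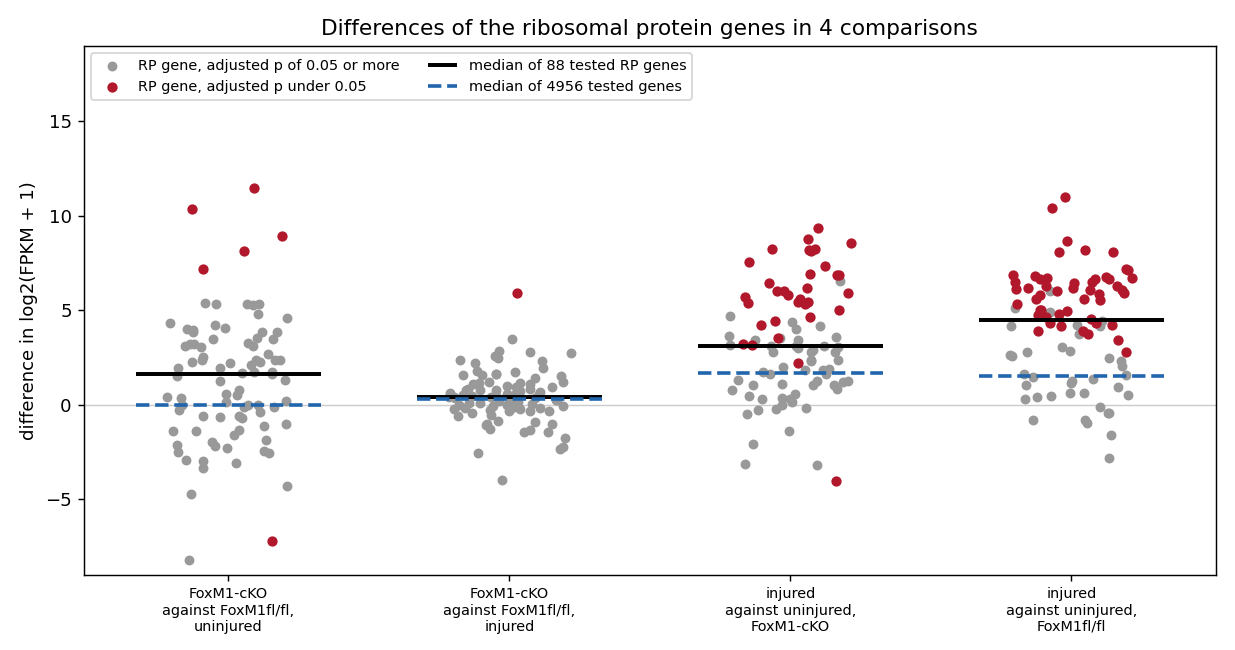
Difference in log2(FPKM + 1) of each of the 88 tested RP genes (1 point a gene, red where the adjusted p from limma was under 0.05) in 4 comparisons, with the median of RP genes (solid line) and of all 4956 tested genes (dashed line). RP medians of 1.65, 0.41, 3.11 and 4.47 stand against 0, 0.32, 1.68 and 1.51 for all tested genes, from left to right. In the first comparison 1464 tested genes lay above 0, 1567 below 0 and the rest at 0.

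Several of the leading genes in FoxM1-cKO SCs were undetected before injury. Rpl9 had 1106, 826 and 308 FPKM in injured FoxM1-cKO SCs and Rpl29 had 307, 471 and 161 FPKM, and both were listed at 0 in all 3 uninjured FoxM1-cKO libraries (adjusted p = 0.000795 from limma for each). Rps29, a zinc-binding small subunit protein, had 288, 598 and 159 FPKM and Rpl39, a short protein of the exit tunnel, had 54.4, 70.5 and 53.1 FPKM in injured FoxM1-cKO SCs, again with 0 in every uninjured FoxM1-cKO library (adjusted p = 0.00141 and 0.00146). Against the floor of 3 reads over the group the rises were at least 389-fold for Rpl9, 51.3-fold for Rpl29, 31.1-fold for Rps29 and 7.04-fold for Rpl39. Rps27rt, a retrogene of Rps27, had 156, 731 and 224 FPKM in injured FoxM1-cKO SCs and 0 in the uninjured libraries (adjusted p = 0.00156).

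Rpl36 stood at 5885, 2197 and 8133 FPKM in injured FoxM1-cKO SCs, against 43.5, 28.6 and 0 FPKM in uninjured FoxM1-cKO SCs (log2 fold change of 8.75 with an SE of 1.38, adjusted p = 0.00146). Rps7, a small subunit protein that binds Mdm2, stood at 2193, 1289.7 and 469 FPKM in injured against 0, 24.3 and 0 FPKM in uninjured FoxM1-cKO SCs (log2 fold change of 8.55 with an SE of 1.40, adjusted p = 0.00160). Rpl7a had 287, 581 and 1327 FPKM in injured against 5.62, 0 and 4.03 FPKM in uninjured FoxM1-cKO SCs (log2 fold change of 7.56 with an SE of 1.34, adjusted p = 0.00257). None of these 3 genes overlapped between injured and uninjured libraries. The only RP gene that fell was Rpl37rt, at 25.7, 10.4 and 16.4 FPKM in injured against 34.4, 687 and 942 FPKM in uninjured FoxM1-cKO SCs (log2 fold change of -4.03 with an SE of 1.34, adjusted p = 0.0440).

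The P-stalk, which recruits elongation factors, was abundant throughout. Rplp1 had the highest mean level of all RP genes, at 54132, 18848 and 21785 FPKM in injured FoxM1-cKO SCs, 15062, 11576 and 22951 FPKM with FoxM1fl/fl after injury, 787, 18441 and 30106 FPKM in uninjured FoxM1-cKO SCs and 3694, 1545 and 23900.0 FPKM in uninjured FoxM1fl/fl SCs. Rplp0, which anchors the stalk, had 10123, 2511 and 1594 FPKM in injured FoxM1-cKO and 7988, 10652 and 1688 FPKM with FoxM1fl/fl after injury, and 86.3, 596 and 1073 FPKM in uninjured FoxM1-cKO against 3330.1, 3771 and 425 FPKM in uninjured FoxM1fl/fl SCs. Neither passed in any comparison. Rplp2, the partner of Rplp1, rose after injury in FoxM1fl/fl SCs, at 1216, 1051 and 1692 FPKM in injured against 143, 85.6 and 492 FPKM in uninjured SCs (log2 fold change of 2.82 with an SE of 0.85, adjusted p = 0.0364 by limma). In FoxM1-cKO SCs it stood at 1733, 1120.1 and 1999 FPKM in injured and 2090.5, 1589.9 and 1246 FPKM in uninjured SCs, and the difference between the genotypes in this response did not pass (adjusted p = 0.191).

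The partners of the 5S rRNA, Rpl5 and Rpl11, which bind Mdm2 when ribosome assembly fails, had different patterns. Rpl5 stood at 678, 455 and 577 FPKM in injured against 37.2, 53.7 and 53.4 FPKM in uninjured FoxM1-cKO SCs, and at 517, 578 and 420.3 FPKM in injured against 4.89, 0 and 19.6 FPKM in uninjured FoxM1fl/fl SCs. It rose in both (log2 fold change 3.54, adjusted p = 0.0422 in FoxM1-cKO, and 6.66, adjusted p = 0.00271 in FoxM1fl/fl SCs, from limma). Rpl11 stood at 69.1, 32.9 and 71.4 FPKM in injured FoxM1-cKO and 53.6, 44.2 and 64.9 FPKM with FoxM1fl/fl after injury, while it had 6.39, 69.4 and 174 FPKM in uninjured FoxM1-cKO and 349, 404 and 31.2 FPKM with FoxM1fl/fl before injury, and passed in no comparison. Other genes of high mean level were Rpl27, Rps14 and Rps3a1. Rpl27 stood in injured SCs at 16246, 18969.9 and 26675 FPKM with FoxM1-cKO and 14360.3, 15809.7 and 11369 FPKM with FoxM1fl/fl, while Rps14 ranged between 907 and 31805 FPKM.

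Paralogs are listed beside their ancestral gene. Rpl3l, a copy of Rpl3 used in striated muscle fibres, was listed at 0 in all 6 injured libraries, and stood at 38.3, 16.8 and 0 FPKM in uninjured FoxM1-cKO and 0, 0 and 4.16 FPKM in uninjured FoxM1fl/fl SCs. The 2 uninjured FoxM1-cKO libraries in which it was highest were also those highest in fibre markers. Rpl3 itself was at 340.4, 1102 and 404 FPKM in injured FoxM1-cKO and 363, 83.0 and 992 FPKM in injured FoxM1fl/fl SCs. Rpl22l1, the paralog of Rpl22, was at 265, 282 and 153 FPKM in injured FoxM1-cKO and 59.3, 24.5 and 139 FPKM with FoxM1fl/fl after injury, and 0, 106 and 200.2 FPKM in uninjured FoxM1-cKO against 0 in all 3 uninjured FoxM1fl/fl libraries. Rpl7l1, a relative of Rpl7, was the least steady RP gene of injured SCs, at 3.23, 19.9 and 0.372 FPKM with FoxM1-cKO and 275, 0.896 and 875 FPKM with FoxM1fl/fl.

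Rps27l, the paralog of Rps27 and a known p53 target, rose in both genotypes (adjusted p = 0.00304 in FoxM1-cKO and 0.0103 in FoxM1fl/fl SCs, from limma). It was at 674, 273 and 157 FPKM in injured FoxM1-cKO and 646, 971 and 19.2 FPKM with FoxM1fl/fl after injury, and was above 0 in a single uninjured library, FoxM1fl/fl uninjured 3, at 9.95 FPKM. Rpl36al, the paralog of Rpl36a, was at 0 in all uninjured libraries, and at 39.0, 2.78 and 1.14 FPKM in injured FoxM1-cKO and 47.7, 54.9 and 3.45 FPKM in injured FoxM1fl/fl SCs. Rps4l was at or below 2.60 FPKM except in FoxM1-cKO injured 3 (55.5 FPKM). Rpl10l and Rpl39l, partners of Rpl10 and Rpl39, were not analysed here.

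For 5 retrocopies the ratio to the gene they derive from spanned less than 4-fold, and the counting cannot separate near-identical copies. Rpl37rt stood at 0.276 to 0.775 times Rpl37 in the 9 libraries where both were above 0, Rpl6l at 0.0880 to 0.224 times Rpl6 in all 12, and Rps27rt at 0.138 to 0.538 times Rps27 in 8. Rps3a2 and Rps3a3 stood at 0.00723 to 0.0141 and 0.00296 to 0.00572 times Rps3a1 in 11 libraries. Rps4l, also a retrocopy, did not keep to this: it ranged between 0.000361 and 0.00792 times Rps4x in the 4 libraries where both were above 0, and it was at 0 in the other 8. Among the paralogs, whose sequence has diverged, Rpl3l stood at 0.116 to 0.341 times Rpl3 in the 3 libraries where both were above 0. Rpl7l1 and Rps27l varied more, between 0.000259 and 24.5 times Rpl7 and between 0.00917 and 6.25 times Rps27. Calls of retrocopies are therefore uncertain. A further 126 rows carried the symbols of RP pseudogenes and were not counted among the 89. Adding their FPKM to the gene they are named for left 49 RP genes higher after injury in FoxM1fl/fl SCs and 31 higher with 1 lower in FoxM1-cKO SCs. Of all tested genes 20.7% and 24.5% were then called.

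Genes that work with the RP genes gave the following counts. Partners outside the Rpl and Rps naming include Fau, whose ubiquitin-like fusion protein releases Rps30, and Rack1, a scaffold on the small subunit. Rack1 was at 636, 1400.0 and 452 FPKM in injured against 0, 5.19 and 7.54 FPKM in uninjured FoxM1-cKO SCs (adjusted p = 0.00160 from limma), and at 1578, 1532 and 1756 FPKM in injured against 17.6, 6.99 and 101 FPKM in uninjured FoxM1fl/fl SCs (adjusted p = 0.00606). Fau was at 811, 165 and 722 FPKM in injured against 15.9, 7.86 and 0 FPKM in uninjured FoxM1-cKO SCs (adjusted p = 0.0232), and its adjusted p in FoxM1fl/fl SCs was 0.0605.

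Of 23 tested genes known for other TOP mRNAs, mostly translation factors and with Fau and Rack1 among them, 16 rose after injury in FoxM1-cKO SCs and 13 in FoxM1fl/fl SCs, against 23.4% and 18.8% of all tested genes that rose, and 0 fell. Between genotypes 1 (Eef1g) was higher in uninjured FoxM1-cKO SCs and 0 passed in injured SCs. Their median log2 difference after injury was 4.58 in FoxM1-cKO and 4.92 in FoxM1fl/fl SCs, and between genotypes 0 in uninjured and 0.15 in injured SCs. They held 1.29% to 2.55% of FPKM in injured FoxM1-cKO, 1.91% to 2.37% in injured FoxM1fl/fl, 0.251% to 0.823% in uninjured FoxM1-cKO and 0.116% to 0.213% in uninjured FoxM1fl/fl libraries. Of 15 tested regulators and chaperones of ribosomal proteins, 3 rose after injury in FoxM1-cKO SCs (Larp1, Gabpa and Rps19bp1), while in FoxM1fl/fl SCs 4 rose (Eif4ebp1, Max, Mdm2 and Tsr2) and 1 fell (Eif4ebp2). These counts are near the 23.4% of all tested genes that rose in FoxM1-cKO and the 18.8% that rose in FoxM1fl/fl SCs, so they say nothing particular of this list. Between genotypes Tsr2, the chaperone of Rps26, was lower in injured FoxM1-cKO SCs, and no other passed.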

How the data were processed

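RNA-seq of sorted SCs was analysed from a table of 12 libraries in 4 groups of 3. The authors deposited FPKM values per gene, and the submitters' processing notes name Bowtie 0.12.9, Cufflinks 2.1.1, HTSeq and the build mm10, whose coordinates are used here. Each library's depth was recovered from the steps of its low FPKM values, of which 96.1% to 97.9% came out as whole reads within 2% of a read. The members and lists were chosen with earlier results of these data known.

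Values were taken as log2(FPKM + 1), so fold changes understate the change of low genes. The 4956 genes that reached 1 FPKM in 3 or more of the 12 libraries were fitted with limma 3.58.1 in R 4.3.3, in a single model of 4 group means with a mean-variance trend, and p-values were adjusted over all of them by Benjamini-Hochberg with a threshold of 0.05. The model was tested on simulated data. A count model could not be the main test because the table holds FPKM. Named genes were, in each comparison, up to 8 called RP genes a direction with the smallest p and a mean of at least 5 FPKM, the P-stalk, 5S and paralog genes, Rps6, Rps19, Rpsa, Rps4x and Rpl37, and the 5 RP genes of highest mean. Other genes were named after their values were seen. Some genes that the rule picks are counted but not reported by name here. A group listed at 0 was given a floor of 3 reads over its summed depth, which covers counting error only. Alternatives were pseudocounts, filters, scalings, fits of the compared groups alone, array weights, a replicate block and leaving out libraries. Voom on recovered reads and adding pseudogenes to their gene were chosen after seeing the data. Python 3.11.15, pandas 2.3.3 and matplotlib 3.10.9 served for tables and plots.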

Additional observations from a re-analysis of the deposited data

Results flagged for a closer look

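The effect of FoxM1 loss differed between injured and uninjured SCs, by a test of the difference itself in limma, for 3 RP genes. The log2 fold change of FoxM1-cKO over FoxM1fl/fl was lower in injured than in uninjured SCs by the following differences: -9.59 for Rpl37rt, -9.98 for Rpl37 and -6.27 for Rps4x. Rpl37 and Rpl37rt were listed at 0 in all 3 uninjured FoxM1fl/fl libraries, so the size of their difference depends on the pseudocount. None of the 3 passed once the 3 libraries close to a weighted sum were left out.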

How the results depend on the processing

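No called RP gene changed direction in the alternatives run, which were not tabulated by gene for RP genes that were not called. The median of all tested RP genes changed sign in 1 case: for the difference between injured and uninjured it was -0.64, and 0.01 by median-ratio scaling. In the comparison of uninjured genotypes 6 RP genes were called, against 13 with a pseudocount of 0.1 and 19 with the stricter filter. The count was 0 with the compared groups alone, 65 with array weights, 13 without the trend and 10 with voom. Of all tested genes 1.53% were called there, against 3.19% with a pseudocount of 0.1 and 10.3% of 1028 with the stricter filter. That share was 0% with the compared groups alone, 2.24% without the trend and 3.41% with voom. The median RP difference of 1.65 became 0.26 by median-ratio scaling and 0.31 when the scaling left out RP genes. In injured SCs 1 was called, against 0 without a filter, 0 with the stricter filter, 0 with the compared groups alone and 3 with array weights. Of all tested genes 7.81% were called, against 0.675% without a filter, 0.292% with the stricter filter and 0.0404% with the compared groups alone. For the difference between injured and uninjured 3 were called, against 7 and 0 with pseudocounts of 0.1 and 5 and 0 without a filter. The count was 0 by quantile normalization, 25 with array weights and 7 with voom. Of all tested genes 1.09% were called for this difference, against 6.21% with a pseudocount of 0.1 and 5.98% with voom. It was 0% in those of these alternatives where no RP gene passed. After injury in FoxM1fl/fl SCs 50 were called, against 30 without a filter, 17 by quantile normalization and 76 with array weights, and the median of 4.47 became 5.68 with a pseudocount of 0.1 and 2.83 by quantile normalization. After injury in FoxM1-cKO SCs 33 were called, against 20 without a filter and 9 by quantile normalization, where the median of 3.11 became 1.83. With array weights 43.4%, 24.6%, 40.7%, 85.2% and 35.4% of all tested genes were called in the 5 comparisons, in this order, so the RP counts stand beside far higher shares. The estimation of these weights stopped before it converged and gave FoxM1fl/fl injured 1, which follows a weighted sum, a weight of 236 against 0.122 to 13.2 for the other libraries. By quantile normalization 6.86% of all tested genes were called after injury in FoxM1fl/fl and 3.37% in FoxM1-cKO SCs, and without a filter 3.13% and 4.36% of 13775. With the 3 libraries close to a weighted sum left out, all 5 counts were 0. The causes were not tested.

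Leaving out 1 library at a time gave 3 to 19 calls between uninjured genotypes (median 0.80 to 1.83), 0 to 2 between injured genotypes (0.23 to 0.51), 0 to 9 for the difference, 27 to 56 after injury in FoxM1fl/fl (4.05 to 5.20) and 22 to 40 in FoxM1-cKO SCs (2.46 to 3.36). In the same order 0.363% to 7.73%, 2.08% to 14.6%, 0% to 8.84%, 7.85% to 29.9% and 12.2% to 27.5% of all tested genes were called. Between uninjured genotypes the RP count was 12, 3 and 17 without FoxM1-cKO uninjured 1, 2 and 3. The shares of all tested genes were then 5.33%, 0.464% and 5.02%. Without FoxM1fl/fl uninjured 1 and 3 it was 3 and 19, beside 0.363% and 7.73% of all tested genes. After injury in FoxM1fl/fl SCs the RP count was 27 without FoxM1fl/fl injured 1 (7.85% of all tested genes) and 30 without FoxM1fl/fl uninjured 1 (7.91%). The difference lost all calls without FoxM1-cKO uninjured 2, FoxM1fl/fl uninjured 1 or FoxM1fl/fl injured 1.

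With the replicate number as a block, 6, 1, 0, 48 and 30 RP genes were called in the 5 comparisons, in the order above. The shares of all tested genes were 1.03%, 6.32%, 0%, 19.4% and 23%. The replicate numbers did not pair the libraries. Over 18 pairs of same-numbered libraries the deviations correlated at -0.03 to 0.05, and 7 correlated best with their own number. The median of 13.5 to 34 reads per RP gene above 0 in uninjured libraries limits what can be detected there.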
